A study of Mus musculus with 42 samples.

Results

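Tumours labelled as harvested on day 14 at 1 h under BXCL701 were set against vehicle tumours of the same day harvested at 0 h. These 2 groups hold 6 of the 42 tumours of the series, 3 in each group, and they were chosen by their labelled treatment, day and hour. All the mice were C57BL/6 animals with Pan02 cells, a mouse pancreatic adenocarcinoma line, grown under the skin, and RNA was sequenced from the whole tumour. The BXCL701 mice received 20 ug of the compound per mouse once a day by oral gavage for 14 days, and the vehicle mice received PBS on the same schedule. Neighbouring groups used here are BXCL701 at 0 h on day 14, BXCL701 at 1 h on day 7 against vehicle at 0 h on day 7, and BXCL701 at 1 h on day 1 against vehicle at 0 h on day 1, again with 3 mice each. No vehicle group carries the label 1 h, so treatment and hour cannot be told apart in any contrast of a 1 h group with vehicle. BXCL701 at 0 h on day 14 matches vehicle of day 14 in both day and hour. The animals' age is not given in the sources used here, and each animal gave 1 library. Pan02 is a single line placed outside the pancreas, so host tissue around the graft can enter a sample, and the epithelial keratin gene Krt8 was present in all 6 tumours, at 16397, 17455 and 11981 at 1 h and at 20105, 25077 and 20398 with vehicle.

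BXCL701, also called talabostat, blocks a family of serine proteases that cut dipeptides from the ends of proteins, among them DPP4 on the cell surface, DPP8 and DPP9 inside the cell, and fibroblast activation protein on stromal cells. Loss of DPP8 and DPP9 activity is known to trigger the NLRP1 inflammasome, which leads to a lytic death of phagocytes and release of inflammatory mediators. Neutrophils and macrophages are the phagocytes that such signals draw into tissue. A separate system read out below is the cells' response to low oxygen, in which hypoxia-inducible factors bind promoters with the core letters ACGTG and raise genes for glucose use, pH control and the factors' own feedback.

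Values are the deposited gene values, which are scaled estimated reads and not whole counts, and the read depth behind them is unknown. Fold changes are differences of log2(value + 1), BXCL701 at 1 h minus vehicle unless another pair is named, with the standard error of the fit, and they understate changes of genes with low values. A gene is said to have risen or fallen where its adjusted p in limma (Benjamini-Hochberg, over 16613 genes) was under 0.05. Levels can be compared between tumours but not between genes, because they are not divided by gene length.

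At 1 h on day 14, 84 of 16613 genes had risen (0.506%) and 47 had fallen (0.283%) against vehicle, 131 genes in all (0.789%). The 10 risen genes with the smallest p were Sla, Rcsd1, Slfn1, Rassf4, Ncf1, Aoah, Tlr13, Rassf2, Cd84 and Mmp8. By list, the risen genes included 4 of 13 neutrophil genes (Mmp8, Csf3r, Lcn2 and Ly6g) and 2 of 12 macrophage genes (Adgre1 and Mertk). The fallen genes included 4 of 12 genes of the hypoxia and glycolysis list (Ankrd37, Bnip3, Car9 and Egln3), and the 10 with the smallest p were Efna1, Artn, Hilpda, Bcas2, Wdr89, Hes1, Ankrd37, Edn2, Hist1h1c and Bnip3. Risen genes differed by 0.43 to 3.26 on the log2 scale and fallen genes by -4.74 to -0.42, while the median over all tested genes was -0.02. At an unadjusted p under 0.05 there were 2336 genes (14.1%). The 3 tumours at 1 h lay all above the 3 vehicle tumours for 83 of the 84 risen genes, and all below them for 47 of the 47 fallen genes. Over all tested genes 6.31% lay all above and 5.61% all below.

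**Figure D1:**
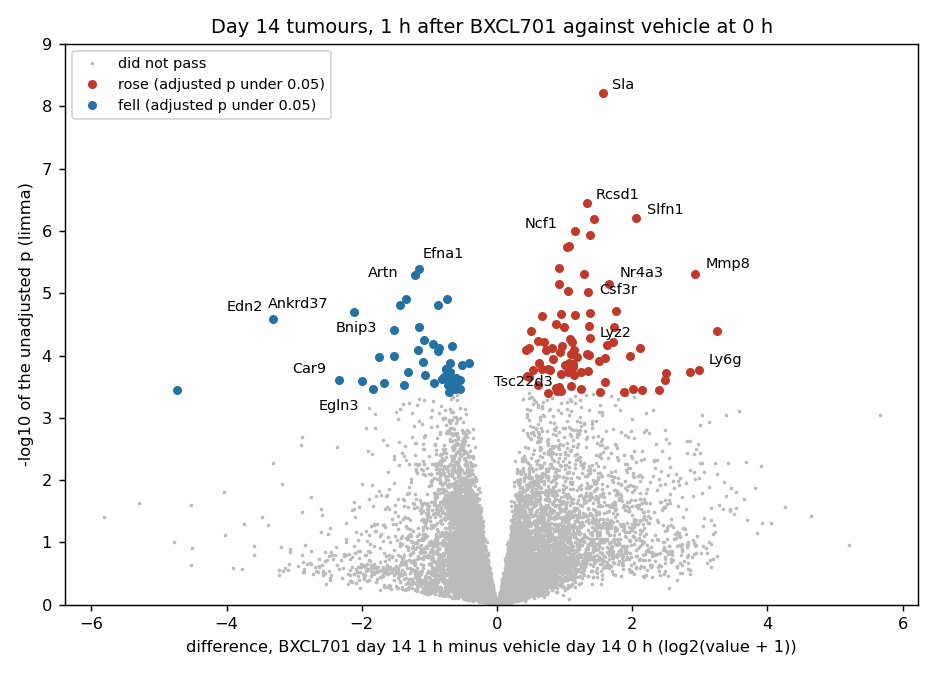
Each point is 1 of 16613 genes. The horizontal axis is the difference BXCL701 day 14 1 h minus vehicle day 14 0 h in log2(value + 1) and the vertical axis is -log10 of the unadjusted limma p. Red points are the 84 genes that rose and blue points the 47 that fell. Sla has the smallest p, and Mmp8, Ly6g and Edn2 lie far out among the labelled genes.

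The number of calls rested on single libraries. Without vehicle replicate 1 there were 43 calls, without vehicle replicate 2 there were 2 (Sla and Nr4a3), and without vehicle replicate 3 there were 1091. Without BXCL701 1 h replicates 1, 2 and 3 there were 38, 32 and 29 calls. All 131 genes kept their direction in each of these 6 fits, which says little. The groups did not overlap for 83 of the 84 risen and 47 of the 47 fallen genes. For those genes leaving out 1 tumour could not reverse the direction. Beside a gene that rose or fell, the number of the 6 fits in which it still passed is given.

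Other tissue moved with the groups. All 14 genes of the fast skeletal muscle sarcomere list were higher at 1 h (median difference 2.68, 0 passing), and their summed value was 315610, 39348 and 53338 at 1 h, against 38226, 20901 and 41227 with vehicle. The high sum at 1 h belongs to a single tumour, replicate 1, and the sums of the other 2 tumours at 1 h lay near the upper vehicle tumours. By the mean of the list on the log2 scale, all 3 tumours at 1 h lay above all vehicle tumours. These means were 13.89, 10.65 and 11.28 at 1 h and 10.12, 7.83 and 10.49 with vehicle. All 12 keratinocyte genes were lower (median -2.34, 0 passing), with sums of 468, 661 and 809 at 1 h and 1117, 1648 and 29192 with vehicle, so that 1 vehicle tumour, replicate 3, stood far above the rest. Krt1, Dsg3 and Dsc3 were listed at 0 in all tumours but that vehicle tumour. The means of the keratinocyte list on the log2 scale were 2.88, 2.65 and 1.63 at 1 h. With vehicle they were 1.96, 2.66 and 9.67, so by this measure the groups overlapped. The 10 adipocyte genes were all higher (median 1.65, 0 passing), with sums of 58271, 15705 and 2938 at 1 h and 2961, 6223 and 7237 with vehicle, and these overlapped. With the mean levels of these 3 lists as covariates, 18 genes rose and 5 fell, and 22 of the 131 genes were among them. In bulk tumours, fewer cells of a type and less RNA per cell cannot be told apart.

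**Figure D2:**
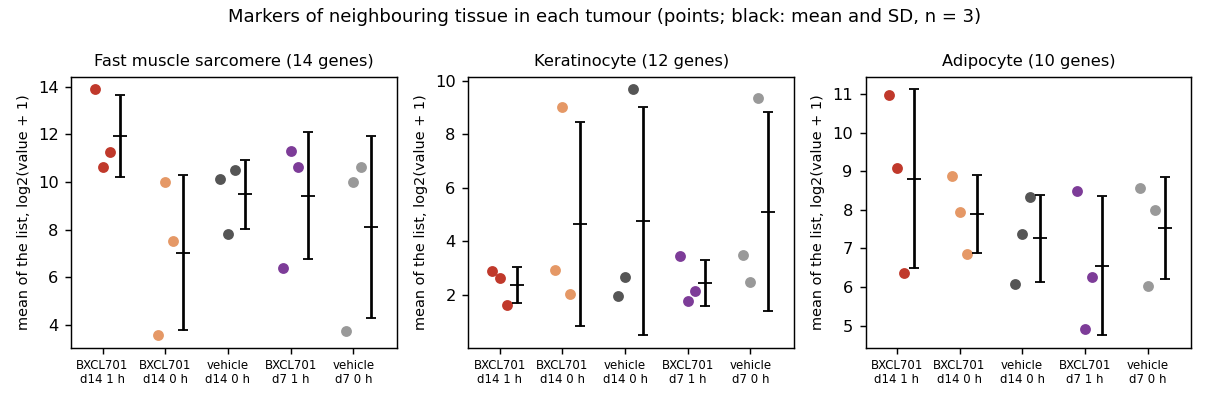
Each point is 1 tumour, and black marks give the mean and SD (n = 3 per group). The vertical axis is the mean log2(value + 1) over the 14 fast muscle, 12 keratinocyte or 10 adipocyte genes. The 3 tumours at 1 h on day 14 include the highest fast muscle value shown. For keratinocyte genes they overlap vehicle of day 14, where 1 tumour is high.

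The gene with the smallest p was Sla, which encodes an adaptor protein that dampens antigen receptor signalling in lymphocytes and is also made in myeloid cells (chromosome 15, 66780819 to 66831829, minus strand, GRCm38). Its values were 906, 925 and 1068 at 1 h and 324, 248 and 426 with vehicle. The lowest tumour at 1 h was above the highest vehicle tumour, and the difference was 1.57 ± 0.20 (SE, adjusted p = 0.000101, passing in 6 of 6 leave-one-out fits). Sla at 1 h on day 14 had the highest mean level of the 14 groups, 9.91 ± 0.13 (SD, n = 3, log2 scale), and the vehicle group of day 14 had the lowest, 8.35 ± 0.39. Against vehicle tumours of days 1 and 7 the difference was 0.88 (adjusted p = 0.0406, limma).

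Slfn1, a Schlafen family gene linked to quiescence of T cells, lies on chromosome 11 (83116849 to 83122670, plus strand). It had values of 412, 345 and 451 at 1 h and 86.9, 71.1 and 140 with vehicle, a difference of 2.06 ± 0.33 (adjusted p = 0.00269, passing in 5 of 6 fits). Its relative Slfn2 also rose, by 1.25 ± 0.30 (adjusted p = 0.0345, passing in 1 of 6). For each of these genes the groups did not overlap, and vehicle replicate 3 was the highest of the vehicle tumours. Rcsd1, which encodes a regulator of actin capping, rose by 1.33 ± 0.21 (5 of 6) with values of 835, 473 and 510 at 1 h against 214, 165 and 357 with vehicle. The Ras-association genes Rassf4 (1.44 ± 0.23) and Rassf2 (1.04 ± 0.18) rose too, passing in 5 of 6 fits each.

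Several risen genes encode parts of the phagocyte's sensing and killing machinery. Ncf1, a cytosolic subunit of the NADPH oxidase that makes superoxide (chromosome 5, 134220053 to 134229625), had 3163, 2232 and 2251 at 1 h and 1062, 924 and 1445 with vehicle (1.16 ± 0.19, adjusted p = 0.00327). Lyz2, the lysozyme of myeloid cells, had 69922, 50546 and 51126 at 1 h and 20158, 17843 and 29466 with vehicle (1.36 ± 0.28, adjusted p = 0.0175). The 3 tumours at 1 h were above all vehicle tumours for both, and Ncf1 passed in 5 and Lyz2 in 2 of 6 fits. Tlr13, a receptor for bacterial ribosomal RNA, rose by 1.06 ± 0.18 (5 of 6), and Tlr2, a receptor for bacterial lipoproteins, by 0.87 ± 0.18 (2 of 6). Aoah, an enzyme that removes acyl chains from endotoxin, rose by 1.38 ± 0.23, and Cd84, a homotypic adhesion receptor of the SLAM family, by 0.91 ± 0.16, each passing in 5 of 6. Fpr1, the receptor for formylated peptides (1.97), Btk, a kinase of B cells and myeloid cells (0.82), Was, the actin regulator named for Wiskott-Aldrich syndrome (0.92), and Cd86, a co-stimulatory ligand (1.14), were also among the 84, each passing in 1 of 6. Lyz2, Tlr2, Slfn2, Fpr1, Btk, Was and Cd86 were named after their values were seen.

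**Figure D3:**
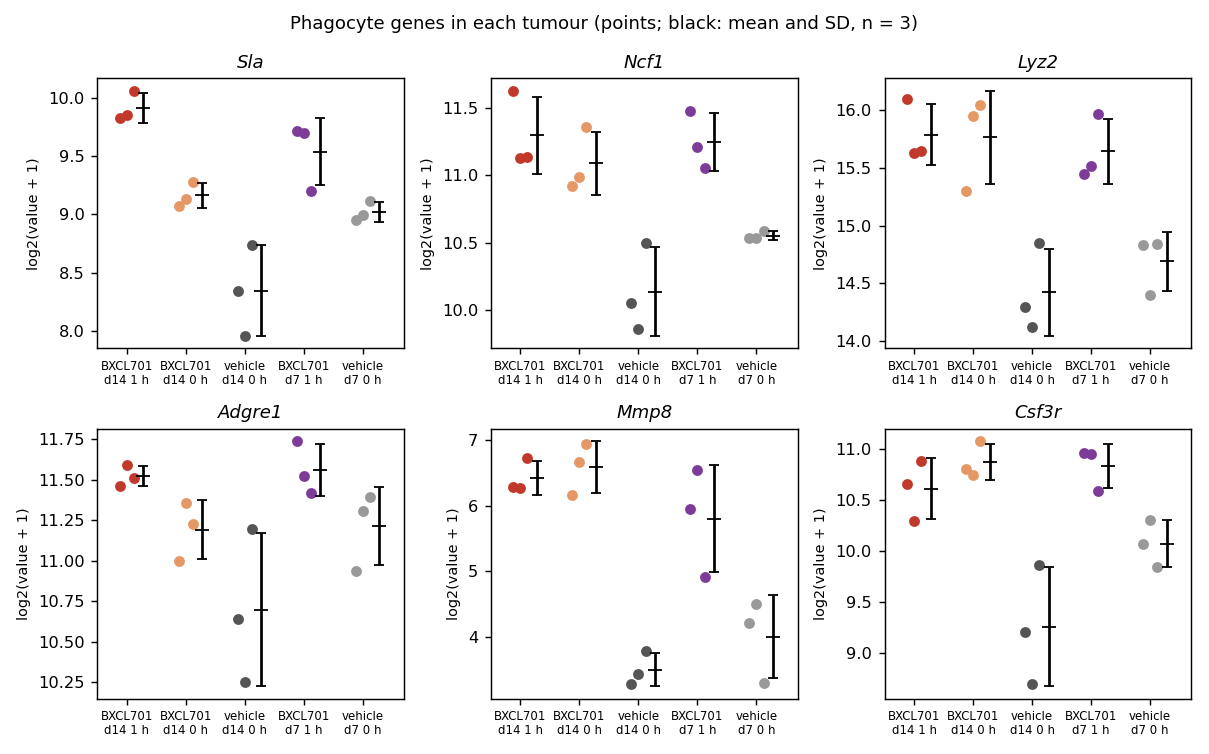
Each point is 1 tumour, and black marks give the mean and SD (n = 3 per group). The vertical axis is log2(value + 1) for Sla, Ncf1, Lyz2, Adgre1, Mmp8 and Csf3r. Shown are BXCL701 day 14 at 1 h and at 0 h, vehicle day 14, BXCL701 day 7 at 1 h and vehicle day 7. Sla is a gene of lymphocytes as well as of myeloid cells. In all 6 genes the points at 1 h on day 14 lie above those of vehicle on day 14.

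Of the 13 neutrophil genes 4 rose and 12 were higher, with a median difference of 1.69 against -0.02 over all genes. Mmp8, the neutrophil collagenase (chromosome 9, 7558456 to 7568485), had 77.3, 76.2 and 105 at 1 h and 8.73, 9.88 and 12.7 with vehicle, a difference of 2.93 ± 0.53 (adjusted p = 0.00658, passing in 5 of 6 fits). Csf3r, the receptor for the growth factor that drives neutrophil production, had 1616, 1253 and 1887 at 1 h and 591, 416 and 932 with vehicle (1.35 ± 0.26, adjusted p = 0.00932, 4 of 6). Lcn2, an iron-withholding protein of neutrophil granules that epithelial cells also make, had 862, 359 and 433 at 1 h and 27.3, 63.7 and 194 with vehicle (2.85 ± 0.67, adjusted p = 0.0345, 1 of 6). All 3 genes were separate between the groups, by the widest margin in Mmp8. Ly6g, the surface antigen that defines mouse neutrophils, was low everywhere, at 7.83, 7.77 and 14.7 at 1 h and 0.449, 0.674 and 0.004 with vehicle (2.99 ± 0.70, adjusted p = 0.0339, 1 of 6).

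The most abundant granulocyte calcium-binding genes were higher without passing. S100a8 had 696, 581 and 946 at 1 h and 402, 418 and 528 with vehicle, a difference of 0.70 ± 0.36 (adjusted p = 0.377). S100a9 differed by 0.82 ± 0.36 (adjusted p = 0.293) and Stfa2l1, a stefin of mouse granulocytes, by 2.31 ± 0.62 (adjusted p = 0.0664). The neutrophil list as a whole summed to 6161, 4545 and 8225 at 1 h and 3897, 2563 and 4201 with vehicle, with Camp listed at 0 in all 3 vehicle tumours and Ngp in 1 of them. The same list had a mean level of 7.09 ± 0.38 (SD, n = 3) at 1 h on day 14, the second highest of the 14 groups after BXCL701 at 0 h on day 14 (7.80 ± 0.22), and 5.36 ± 0.08 with vehicle on day 14, where only 1 h and 8 h on day 1 were lower. Vehicle tumours of day 1 (5.46 ± 0.43) and day 7 (5.72 ± 0.09) were close to those of day 14.

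Cytokine genes that recruit neutrophils or drive their production gave no calls. Of 11 tested, 0 rose and 0 fell, 4 were higher and 7 lower, with a median of -0.15. Cxcl1, a main neutrophil chemokine of the mouse, had 23, 61.5 and 60.1 at 1 h and 99.9, 274 and 104 with vehicle (-1.66 ± 0.73, adjusted p = 0.288). The 3 values at 1 h were below all vehicle values. Il6 (-0.30 ± 0.56) and Csf3 (-0.09 ± 0.95), which encodes the ligand of the Csf3r receptor, overlapped between the groups, and Csf3 was at 2.41, 0 and 3.08 at 1 h against 0.607, 0.831 and 4.71 with vehicle. Ccl2, a monocyte chemokine, was 0.91 ± 0.28 higher (adjusted p = 0.113).

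All 12 macrophage genes were higher (median 0.70) and 2 rose. Adgre1, which encodes the F4/80 antigen, had 2825, 3088 and 2922 at 1 h and 1597, 1219 and 2340 with vehicle (0.83 ± 0.19, adjusted p = 0.0286, 1 of 6 fits). Mertk, a receptor through which macrophages engulf dying cells, had 237, 380 and 384 at 1 h and 113, 60.7 and 178 with vehicle (1.60 ± 0.36, adjusted p = 0.0275, 2 of 6). In both genes vehicle replicate 3 came closest to the tumours at 1 h. Csf1r, the receptor for the macrophage growth factor, overlapped between the groups (0.72 ± 0.25, adjusted p = 0.168), as did 7 of the 12 list members in all. The haemoglobin scavenger receptor gene Cd163 was 2.12 ± 0.83 higher (adjusted p = 0.236). The sialic acid receptor gene Siglec1, which is not on the list, rose by 1.88 ± 0.47 (adjusted p = 0.0491, 1 of 6). Siglec1 was named after its values were seen. The mean level of the macrophage list was highest of the 14 groups at 1 h on day 14 (11.28 ± 0.12, SD, n = 3) and lowest in vehicle of day 14 (10.45 ± 0.51), with vehicle of days 1 and 7 at 10.81 ± 0.21 and 10.77 ± 0.20. With the day 1 and day 7 vehicle tumours in place of those of day 14, the median difference of the list was 0.32.

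Lymphocyte genes gave few calls. Of 9 cytotoxic effector genes 1 rose: Gzmk, a granzyme of effector-memory T cells, with 13.5, 30.9 and 30.2 at 1 h and 4.09, 1.02 and 6.71 with vehicle (2.50 ± 0.59, adjusted p = 0.0346, 1 of 6 fits). Gzma, the granzyme of killer cells, had 74.1, 67.4 and 33.5 at 1 h and 2.42, 0.823 and 15.7 with vehicle, a difference of 3.58 ± 0.96 that missed the threshold (adjusted p = 0.0666). Both granzyme genes separated the groups at low values. All 16 T cell receptor and co-receptor genes were higher (median 0.86) and 0 passed. Cd8a had 147, 166 and 178 at 1 h and 80.1, 43.5 and 74.4 with vehicle (1.34 ± 0.46, adjusted p = 0.166). Against the vehicle tumours of days 1 and 7, Cd8a differed by -0.22 and the median of the T cell list was -0.26, so the direction of these genes depended on which vehicle tumours were used. Cd226, an activating receptor of T and NK cells, had 24.8, 26.4 and 30.8 at 1 h and 2.33, 0.006 and 6.65 with vehicle (3.26 ± 0.68, adjusted p = 0.0186, 1 of 6). The vehicle values are near 0, and Cd226 was named after its values were seen. Of 10 checkpoint genes 1 rose, Havcr2, which encodes TIM-3 and is made by both T cells and myeloid cells (0.89 ± 0.22, adjusted p = 0.0479, 1 of 6).

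Genes of the interferon response and of antigen presentation were mostly higher, and 0 of the 60 places on the 4 lists for interferon gamma, type I interferon, MHC class I and MHC class II passed. The MHC class I list had 12 of 12 genes higher (median 0.72) and the interferon gamma list 18 of 20 (median 0.80). Against vehicle of days 1 and 7 these medians were -0.02 and -0.21. H2-K1, a classical class I heavy chain, had 26701, 27245 and 25885 at 1 h and 11226, 10210 and 20895 with vehicle (0.99 ± 0.36, adjusted p = 0.183). Off the list, the class I genes H2-Q5, H2-Q6 and H2-Q7 rose by 1.72 ± 0.37, 1.63 ± 0.35 and 1.60 ± 0.39, each passing in 1 of 6 fits. These 3 genes are near-identical neighbours on chromosome 17, so reads may have been shared among them and their separate values are uncertain. They were named after their values were seen. The CXCR3 ligand genes Cxcl9 (1.26 ± 0.61) and Cxcl10 (0.25 ± 0.48), and Cd274, which encodes PD-L1 (0.45 ± 0.43), overlapped between the groups. Their receptor gene Cxcr3 was 1.15 ± 0.39 higher without passing (adjusted p = 0.153).

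Of the compound's targets, 0 of 7 dipeptidyl peptidase family genes passed. Dpp4 had 291, 165 and 152 at 1 h and 35.8, 61.4 and 113 with vehicle, and did not overlap (1.61 ± 0.47, adjusted p = 0.0939). Fap (0.94 ± 0.74), Dpp8 (0.46 ± 0.31) and Dpp9 (0.17 ± 0.15) overlapped between the groups. Of 11 inflammasome and pyroptosis genes 0 passed. The nearest was Nlrp1a, a mouse NLRP1 sensor gene, at 31.5, 45.6 and 31.2 at 1 h and 15.1, 7.44 and 17.8 with vehicle (1.42 ± 0.36, adjusted p = 0.0508). Il18, a cytokine released through inflammasomes, was lower at 224, 170 and 171 against 356, 405 and 256 with vehicle (-0.83 ± 0.22, adjusted p = 0.0631).

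All 12 genes of the hypoxia and glycolysis list were lower at 1 h, with a median difference of -0.76, and 4 fell. Promoter windows of the 4 are shown because these genes fell together and share a short motif. Each window runs from 250 bases before to 50 bases after the RefSeq start (GRCm38.p6), is written 5′ to 3′ on the gene's strand, and has every ACGTG match on either strand in capitals. Ankrd37 lies at chr8:45999801-46000100 (minus strand), Bnip3 at chr7:138909457-138909756 (minus strand), Egln3 at chr12:54203825-54204124 (minus strand) and Car9 at chr4:43506776-43507075 (plus strand).
Ankrd37: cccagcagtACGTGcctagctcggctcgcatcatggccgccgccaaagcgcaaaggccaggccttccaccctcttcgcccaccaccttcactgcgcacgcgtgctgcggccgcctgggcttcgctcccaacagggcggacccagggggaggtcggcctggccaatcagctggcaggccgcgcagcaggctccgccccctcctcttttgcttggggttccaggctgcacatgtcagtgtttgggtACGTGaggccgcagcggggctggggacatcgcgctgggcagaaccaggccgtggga
Bnip3: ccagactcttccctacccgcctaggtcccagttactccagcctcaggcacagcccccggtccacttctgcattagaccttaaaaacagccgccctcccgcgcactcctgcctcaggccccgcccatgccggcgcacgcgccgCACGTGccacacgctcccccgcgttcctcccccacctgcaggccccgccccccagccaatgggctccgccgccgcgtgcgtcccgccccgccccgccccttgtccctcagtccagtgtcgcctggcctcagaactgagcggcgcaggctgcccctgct
Egln3: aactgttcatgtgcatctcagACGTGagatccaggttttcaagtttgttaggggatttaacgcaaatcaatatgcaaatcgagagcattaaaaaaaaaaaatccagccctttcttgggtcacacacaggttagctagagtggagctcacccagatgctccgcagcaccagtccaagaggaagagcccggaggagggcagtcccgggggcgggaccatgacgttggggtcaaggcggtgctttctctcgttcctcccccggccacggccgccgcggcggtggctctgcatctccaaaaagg
Car9: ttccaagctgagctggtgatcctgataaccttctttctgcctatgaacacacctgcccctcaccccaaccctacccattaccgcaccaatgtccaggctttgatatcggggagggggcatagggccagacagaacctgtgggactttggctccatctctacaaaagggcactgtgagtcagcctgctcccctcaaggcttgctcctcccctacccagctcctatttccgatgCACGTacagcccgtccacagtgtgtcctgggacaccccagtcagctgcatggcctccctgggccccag
Ankrd37 holds 2 matches, 241 and 6 bases before the start, and Egln3 holds 1, 229 bases before it. In Bnip3 the overlapping matches on the 2 strands form the run CACGTG about 107 bases before the start, and in Car9 the match is on the opposite strand, 18 bases before the start. Of the 11 list members with a window, 9 held the motif, and 19.6% of 32851 windows of the same length did. The first is a count of genes and the second of windows, of which a gene can have several. The share of a hypoxia list with this motif is not a result of these data. A match of letters is not evidence of binding.

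Ankrd37, which encodes an ankyrin-repeat protein and is among the most oxygen-responsive transcripts, had 89.2, 124 and 103 at 1 h and 445, 574 and 368 with vehicle (-2.11 ± 0.42, adjusted p = 0.0143, passing in 3 of 6 fits). Bnip3, which directs mitochondria to autophagy, had 872, 826 and 744 at 1 h and 2424, 2792 and 1908 with vehicle (-1.53 ± 0.32, adjusted p = 0.0186, 1 of 6). Both genes were lower in every tumour at 1 h than in any vehicle tumour. Car9, the cell-surface carbonic anhydrase that exports acid, had 242, 162 and 102 at 1 h and 901, 760 and 757 with vehicle (-2.33 ± 0.56, adjusted p = 0.04, 1 of 6). Egln3, the oxygen-sensing prolyl hydroxylase PHD3, had 2111, 3380 and 2283 at 1 h and 13308, 9870 and 5658 with vehicle (-1.84 ± 0.46, adjusted p = 0.0474, 1 of 6). These groups did not overlap either. Slc2a1, the glucose transporter GLUT1, was close at 995, 964 and 984 against 1600, 1856 and 3026 with vehicle (-1.08 ± 0.28, adjusted p = 0.0559), while Hk2, the hexokinase of glycolysis, differed by -0.04 ± 0.26.

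**Figure D4:**
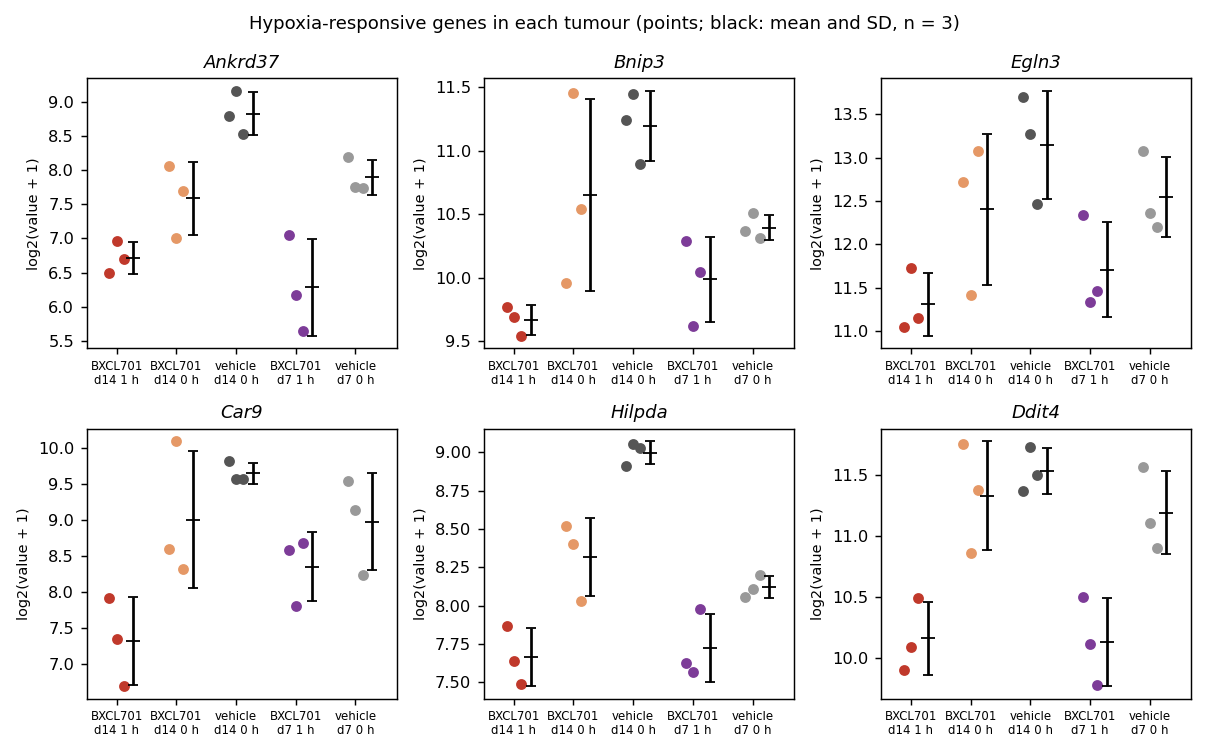
Each point is 1 tumour, and black marks give the mean and SD (n = 3 per group). The vertical axis is log2(value + 1) for 4 hypoxia-list genes that fell (Ankrd37, Bnip3, Egln3 and Car9) and for Hilpda and Ddit4. At 1 h on day 14 all points lie below vehicle of day 14, and at 0 h on day 14 the spread is wide for Bnip3, Egln3 and Car9.

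Hilpda, Edn2, Ddit4 and Mxi1 fell and are not on the hypoxia and glycolysis list. They are described here as single genes, since no further list of oxygen-responsive genes was counted. Hilpda, a lipid droplet protein that blocks fat breakdown, had 232, 198 and 178 at 1 h and 481, 531 and 520 with vehicle (-1.34 ± 0.26, adjusted p = 0.011, 4 of 6 fits). Edn2, a vasoconstrictor peptide, had 5.04, 5.02 and 2.33 at 1 h and 40.9, 50.5 and 54.3 with vehicle (-3.31 ± 0.67, adjusted p = 0.0152, 4 of 6). The vehicle tumours were tight and far above the tumours at 1 h in both. Ddit4, a stress-induced brake on mTOR signalling, had 958, 1092 and 1436 at 1 h and 2633, 3394 and 2889 with vehicle (-1.37 ± 0.34, adjusted p = 0.0443, 1 of 6), and Mxi1, an antagonist of MYC, fell by 1.08 on the log2 scale (SE 0.23, adjusted p = 0.0236, 2 of 6). Mxi1 was named after its values were seen.

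The hypoxia list had its lowest mean level of the 14 groups at 1 h on day 14, 10.30 ± 0.14 (SD, n = 3, log2 scale), while vehicle of day 14 stood at 11.35 ± 0.12, close behind the highest groups. On day 14 the mean was 11.01 ± 0.01 at 0 h, 10.30 ± 0.14 at 1 h, 10.97 ± 0.49 at 8 h and 11.03 ± 0.28 at 16 h under BXCL701. On day 7 the mean was 10.45 ± 0.28 at 0 h, 10.41 ± 0.29 at 1 h, 11.47 ± 0.36 at 8 h and 10.88 ± 0.32 at 16 h under BXCL701, with 10.91 ± 0.18 in vehicle of day 7, so the low level on day 7 was present at 0 h as well as at 1 h. With the 3 neighbouring-tissue levels as covariates, Ankrd37, Bnip3, Car9 and Egln3 differed by -1.83, -1.28, -1.89 and -1.59 with adjusted p of 0.104, 0.145, 0.241 and 0.102, so none of the 4 passed. Against vehicle of days 1 and 7 the list median was -0.45.

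The other leading fallen genes have varied roles. Efna1, an ephrin ligand that guides cell contacts, had 544, 500 and 453 at 1 h and 1273, 1397 and 776 with vehicle (-1.16 ± 0.21, adjusted p = 0.00658, 5 of 6 fits). Artn, a neurotrophic ligand of the GDNF family, had 316, 338 and 208 at 1 h and 732, 662 and 567 with vehicle (-1.21 ± 0.22, adjusted p = 0.00658, 4 of 6). Neither gene overlapped between the groups, and for Efna1 the low vehicle tumour was replicate 3. Hes1, the transcriptional repressor downstream of Notch, had 799, 860 and 1182 at 1 h and 2195, 5165 and 1414 with vehicle (-1.43 ± 0.28, adjusted p = 0.0123, 3 of 6), with 1 vehicle tumour far above the others. Sox9, a factor of ductal and progenitor cells, fell by 1.53 (2 of 6) and was named after its value was seen. Bcas2, a splicing factor (-0.74 ± 0.14), Wdr89, a WD-repeat gene (-0.87 ± 0.17), and Hist1h1c, a linker histone gene (-1.15 ± 0.24), fell, passing in 3, 4 and 2 of 6 fits.

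All 15 cytosolic ribosomal protein genes were lower (median -0.60) and 1 fell, Rpl22l1, a paralogue of Rpl22 (-0.86 ± 0.19, adjusted p = 0.0249, 3 of 6 fits). It had 1197, 927 and 968 at 1 h and 1509, 2972 and 1427 with vehicle, where replicate 2 was well above the others. Gas5, a non-coding host of small nucleolar RNAs, had 3155, 3788 and 3158 at 1 h and 5293, 7424 and 3848 with vehicle (-0.67 ± 0.15, adjusted p = 0.0249, 2 of 6). Vehicle replicate 2 was the high tumour again. Vehicle of day 14 had the highest ribosomal protein mean of the 14 groups, and against vehicle of days 1 and 7 the list median was -0.16 and Gas5 differed by -0.00. The length of transcripts moved with the groups in part: the slope of a library's deviations on log2 exon length was -0.18, 0.11 and 0.165 at 1 h and 0.0146, -0.157 and -0.0771 with vehicle, and the median exon length was 4930 bases for risen genes, 2378 for fallen genes and 4039 for all. The part of transcript length in these calls was tested only as a covariate, and all 131 genes passed with it.

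Hormone- and hour-sensitive genes were few among the calls. Tsc22d3, which encodes the glucocorticoid-induced leucine zipper GILZ, had 2973, 1525 and 2011 at 1 h and 971, 1268 and 779 with vehicle (1.08 ± 0.25, adjusted p = 0.0339, 2 of 6 fits). Fkbp5, a co-chaperone that restrains the glucocorticoid receptor, had 4555, 4722 and 3873 at 1 h and 2102, 2202 and 2202 with vehicle (1.01 ± 0.23, adjusted p = 0.0317, 1 of 6). Every tumour at 1 h exceeded every vehicle tumour in both genes. They are the 2 risen genes of the 12 on the glucocorticoid-induced list, while Ddit4, on the same list, fell and the list median was 0.11. Zbtb16, a zinc finger gene that the hormone raises strongly in many tissues (2.56 ± 0.87, adjusted p = 0.158), and Per1, a clock gene with hormone-responsive elements (0.90 ± 0.30, adjusted p = 0.148), were higher without passing.

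Nr4a3, an orphan nuclear receptor induced within an hour by many stimuli, had 255, 251 and 203 at 1 h and 66.6, 112 and 55.2 with vehicle (1.65 ± 0.31, adjusted p = 0.00792, 6 of 6 fits). Its level at 1 h on day 14, 7.88 ± 0.18 (SD, n = 3, log2 scale), was the highest of the 14 groups and that at 1 h on day 7, 7.80 ± 0.19, the next, and these neighbours differed by less than their spread. Of 16 immediate early genes 0 passed and 12 were lower (median -0.49), and Fos had 400, 440 and 429 at 1 h and 763, 522 and 525 with vehicle (-0.49 ± 0.38, adjusted p = 0.602). Of 16 clock genes 0 passed, with Bhlhe40, a repressor that is also raised by low oxygen, at -1.19 ± 0.31 (adjusted p = 0.0609). The 10 heat shock genes (median 0.18) and 10 unfolded protein response genes (median 0.08) gave 0 calls each. Of 20 proliferation genes 0 passed and 17 were lower, with a median of -0.25.

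**Figure D5:**
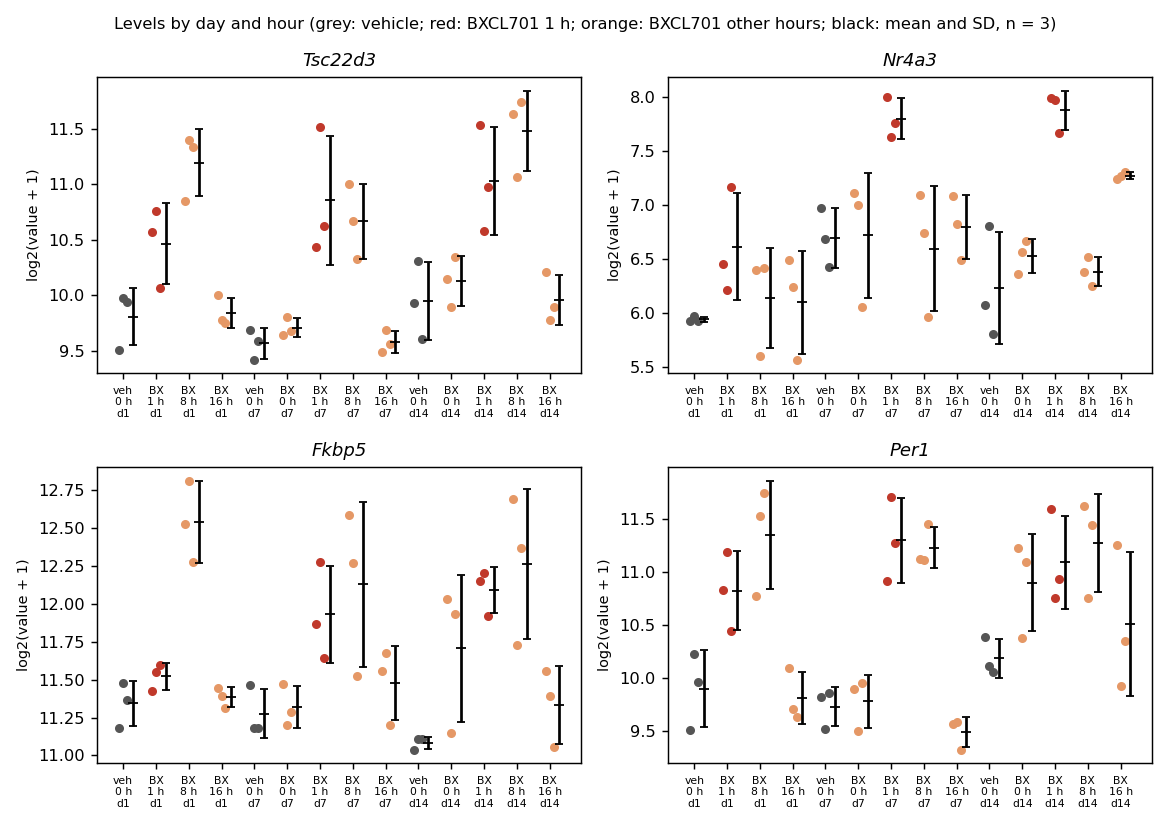
Points are single tumours and black marks the mean and SD (n = 3 per group) of log2(value + 1) for Tsc22d3, Nr4a3, Fkbp5 and Per1. Groups run by day, with vehicle at 0 h first within each day and BXCL701 hours in order (BX for BXCL701, veh for vehicle). Nr4a3 has its highest mean at 1 h on each day, with overlap between hours on day 1. Tsc22d3 is higher at 1 h and 8 h than at 0 h or 16 h on each day, where 0 h on day 1 is vehicle only.

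Tumours given BXCL701 on the same schedule but taken at 0 h allow the hours to be compared under treatment. Between 1 h and 0 h under BXCL701, limma called 0 of 16613 genes (0%), with 856 (5.15%) at an unadjusted p under 0.05. The gene with the smallest p that was higher at 1 h was Nr4a3, at 255, 251 and 203 at 1 h and 81.3, 94 and 101 at 0 h (1.35 ± 0.31, adjusted p = 0.57). The 2 groups of Nr4a3 did not overlap, and Sla was likewise separate, at 906, 925 and 1068 against 538, 561 and 620 at 0 h (0.75 ± 0.20, adjusted p = 0.57). Pde4dip, a centrosome scaffold gene (1.25), and Srrm4os, a non-coding transcript (4.46), also had small p among the higher genes, and the activin subunit gene Inhbb (-1.29), the immunoglobulin gene Igkv4-74 (-6.06) and Fam102a (-0.71) among the lower ones, each with an adjusted p of 0.57.

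At 0 h on day 14, BXCL701 minus vehicle gave 116 risen genes (0.698%) and 14 fallen (0.0843%), 130 in all (0.783%). That contrast uses the same 3 vehicle tumours, so the following values stand side by side and neither set supports the other. Slfn1 differed from vehicle by 2.06 at 1 h and 1.96 at 0 h, Mmp8 by 2.93 and 3.09, Csf3r by 1.35 and 1.62, and Lyz2 by 1.36 and 1.34. These genes stood about as far above vehicle at 0 h as at 1 h, and between the hours they differed by 0.10, -0.16, -0.26 and 0.03. The neutrophil list median was 1.69 at 1 h and 2.30 at 0 h, where 11 of 13 passed. The hypoxia list median was -0.76 at 1 h and -0.22 at 0 h, where 0 passed, and the direct difference between the hours had a median of -0.62. Nr4a3 differed from vehicle by 1.65 at 1 h and 0.30 at 0 h, Tsc22d3 by 1.08 and 0.18, and Ddit4 by -1.37 and -0.20. On the log2 scale Fkbp5 stood at 12.154, 12.206 and 11.920 at 1 h and at 12.035, 11.150 and 11.937 at 0 h. With vehicle Fkbp5 stood at 11.038, 11.106 and 11.105, so its higher level was in part present at 0 h. For the hour itself, Tsc22d3 was 0.90 ± 0.25 higher (adjusted p = 0.57) and Ddit4 differed by -1.17 ± 0.34 (adjusted p = 0.57). The fast muscle list, higher at 1 h than at 0 h by a median of 4.93, moved with this contrast too.

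Day 7 tumours offer the same hours in other animals. At 1 h on day 7 limma called 0 genes against vehicle of day 7 (0%), with 1214 (7.31%) at an unadjusted p under 0.05. Of the 84 genes risen on day 14, 80 were higher on day 7 (95.2%) and 30 of them had an unadjusted p under 0.05, against 48.9% and 639 of 16613 over all genes. Of the 47 fallen genes 38 were lower (80.9%), 9 of them with an unadjusted p under 0.05, against 51.1% and 575 over all. Among single genes, Ankrd37 had 131, 70.7 and 48.7 at 1 h on day 7 and 292, 216 and 213 with vehicle (-1.61, unadjusted p = 0.00057), and Mmp8 had 60.9, 92.1 and 29.3 against 17.5, 21.7 and 8.8 (1.80, unadjusted p = 0.00189). Neither gene overlapped between the groups on day 7. The median difference on day 7 was 0.42 for the risen genes and -0.17 for the fallen ones. These genes were selected by their day 14 p-values, so the sizes on day 14 and day 7 cannot be fairly compared. On day 1, at 1 h with a single dose, limma called 0 genes (0%) and 109 (0.656%) had an unadjusted p under 0.05, while 60 of the 84 were higher (71.4%, 51.5% over all) and 28 of the 47 lower (59.6%, 48.5% over all).

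The difference between the 2 days was tested directly, and limma called 0 of 16613 genes (0%), with 1625 (9.78%) at an unadjusted p under 0.05. Sla was among the 5 smallest p with a larger difference on day 14 (1.57 on day 14 and 0.52 on day 7, a difference of 1.05, adjusted p = 0.511). Efna1 was -1.16 on day 14 and 0.12 on day 7 (a difference of -1.28), and Rpl22 was -0.68 and 0.55 (-1.24), each with an adjusted p of 0.511. Uhrf1bp1, a lipid transfer protein gene, differed by 0.92 on day 14 (4 of 6) and -0.03 on day 7.

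The remaining lists gave 0 calls each. Among immune cells the median difference was 0.49 for dendritic cell, 0.87 for NK cell, -0.06 for B and plasma cell and -0.00 for mast cell genes. Among stromal and vascular genes it was -0.19 for fibroblast and pericyte, 0.04 for collagen and matrix, 0.31 for endothelial and 0.45 for red blood cell genes. Lists of slow muscle, calcium handling, muscle metabolism and myogenic regulators were higher by medians of 2.06, 2.47, 2.38 and 2.11. Mitochondrially encoded genes had a median of 0.01 and nuclear oxidative phosphorylation genes one of -0.12. Against vehicle of days 1 and 7 the median turned sign for dendritic cell (-0.20), NK cell (-0.04), checkpoint (-0.26), CXCR3 and ligand (-0.37), MHC class II (-0.39), collagen and matrix (-0.35), clock (0.24) and oxidative phosphorylation (0.04) genes, besides the T cell, interferon gamma and MHC class I lists given above. The mast cell median moved from -0.00 to 0.72 with those vehicle tumours.

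With the 6 vehicle tumours of days 1 and 7 in place of those of day 14, a choice made after seeing the data, 5 genes were higher (0.0301%) and 3 lower (0.0181%) at 1 h on day 14, 8 in all (0.0482%), and 1123 (6.76%) had an unadjusted p under 0.05. Mmp8 (2.52, adjusted p = 0.0219), Nr4a3 (1.56, adjusted p = 0.00937), Tsc22d3 (1.34, adjusted p = 0.00937), Sla (0.88, adjusted p = 0.0406) and, among the lower genes, Lrrc46, a leucine-rich repeat gene (-1.70, adjusted p = 0.049), were in both sets of calls. Of the 131 genes called against vehicle of day 14, 130 kept their direction. The risen genes were higher in 84 of 84 (100%, 47.7% over all) and the fallen genes lower in 46 of 47 (97.9%, 52.3% over all). Both contrasts use the same 3 tumours at 1 h, so the shared direction does not support the calls.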

How the data were processed

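RNA was sequenced from 42 tumours in 14 groups of 3 mice. The submitters' processing notes name Trimmomatic 0.36, Bowtie 0.12.9 and GRCm38; how genes were quantified and libraries scaled is not given in the sources used here. In the gene table deposited by the authors, signal values are not whole numbers and were taken as scaled estimated reads (library totals 19133149 to 26633378, or 20415669 to 24040396 in the 6 main libraries). The count test first planned was therefore exchanged for limma. A log2 FPKM table, also deposited, served as an alternative, and a second log2 table was left aside.

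Kept were 16613 of 47729 genes, those reaching 10 in 3 or more libraries. A single limma 3.58.1 model in R 4.3.3 (trend, robust), with a coefficient per group, was fitted to log2(value + 1) in all 42 libraries (28 residual degrees of freedom). Adjusted p-values are Benjamini-Hochberg values within each comparison (threshold 0.05). No 2 libraries were near-identical (highest correlation 0.9813). Positions follow GENCODE M21. Alternatives were other scaling, no filter, pseudocount 5, the comparison's libraries alone, tissue or length covariates, a minimum of 2-fold, and single libraries left out.

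The groups and the 38 gene lists were chosen with earlier results of these data known. Named genes are the 10 smallest p-values per direction, the same with tissue covariates, up to 4 members per list and a fixed set, unless marked as chosen afterwards. In the other comparisons they are the 5 smallest per direction, or 3 where fewer than 3 passed.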

Additional observations from a re-analysis of the deposited data

How the results depend on the processing

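For BXCL701 at 1 h minus vehicle on day 14 (84 genes rose and 47 fell), the risen and fallen counts were 138 and 31 with median-of-ratios factors, 18 and 5 with the 3 neighbouring-tissue levels as covariates, 612 and 908 when the slope on exon length was a covariate, and 5 and 3 against vehicle of days 1 and 7. They were 119 and 31 in the log2 FPKM table, and 0 and 0 both with the 6 libraries alone (954 at an unadjusted p under 0.05) and with a 2-fold minimum. Leaving out 1 library gave 2 to 626 risen and 0 to 465 fallen genes. The causes of these changes were not tested. The 6-library fit had fewer samples and also tested fewer genes (14816), and these were not varied separately. No filter, a pseudocount of 5 and the muscle level alone kept both counts within 1.5 times. All 131 genes kept their direction in these settings, except 1 against vehicle of days 1 and 7 and 3 that the 6-library fit did not test. These settings share tumours with the main fit, so the kept direction gives the calls no independent support.

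For 1 h minus 0 h under BXCL701 (0 genes), 11 genes passed with no filter, 1 with the 3 tissue covariates, 1 with the muscle covariate, and 0 to 1 when a library was left out. For the difference of days 14 and 7 (0 genes), 3 passed with no filter and 0 to 6 with a library left out, the 6 without vehicle day 14 replicate 3.

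Against vehicle of days 1 and 7 the sign turned for Cd8a (-0.22), Cxcl9 (-0.49), Cxcl10 (-0.50), Cd274 (-0.45) and Dpp9 (-0.01). Leaving out 1 library gave -0.16 (without BXCL701 1 h replicate 2) to 0.71 for Cxcl10, -0.02 (without vehicle replicate 2) to 0.33 for Dpp9 and -0.47 to 0.54 for Csf3, which was also positive without vehicle replicate 3 (0.49) and with the exon-length slope (0.19). None of these genes had passed. No paired analysis was possible because the labels give no replicate numbers and each library is a different mouse, so the replicate numbers only name samples. Depth per library is unknown, so genes with values near 0, such as Ly6g, Cd226 and Csf3, carry counting error that could not be sized.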
